A study of Mus musculus with 8 samples.

Results

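The genes described here are 8 transcription factors that set the identity of hepatocytes, Hnf4a, Cebpa, Cebpb, Foxa1, Foxa2, Foxa3, Onecut1 and Nr5a2, read through every probe set that the annotation of the array gives to them. They held 16 of the 45101 probe sets of the array and 8 of the 17790 genes tested, and all 16 probe sets passed the minimum signal. Liver RNA of BALB/c mice of 8 weeks was hybridised to 8 Affymetrix arrays, 2 in each of 4 groups, with the RNA of 3 mice pooled on every array. The post-A20 and pre-A20 livers had received rAd.A20, a recombinant adenovirus with the human gene of A20, an inhibitor of NF-κB, and the post-βgal and pre-βgal livers rAd.βgal, the same kind of virus with β-galactosidase. All mice thus carried an adenovirus, given 5 days before a 78% resection. The pre-A20 and pre-βgal arrays hold the lobes removed at resection, and the post-A20 and post-βgal arrays the remnant liver 24 h later. The virus reaches 30% to 40% of hepatocytes, so each array also holds RNA of hepatocytes without the transgene. For the post-A20 samples the treatment text of the records repeats the βgal wording, while the A20 of their titles, descriptions and source names was followed here. In such bulk RNA, fewer hepatocytes and less RNA of a gene per hepatocyte cannot be told apart.

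Hepatocytes keep their identity through a network of transcription factors that bind together at the promoters and enhancers of liver genes and regulate each other. HNF4A is a nuclear receptor at the centre of this network, the FOXA proteins open closed chromatin, C/EBPα and C/EBPβ are leucine zipper factors, ONECUT1 (HNF6) carries a cut domain and a homeodomain, and NR5A2 (LRH-1) is a nuclear receptor known for the genes of bile acid synthesis. In liver regeneration C/EBPα is known as a brake on hepatocyte division and C/EBPβ as a factor that promotes it and that drives acute phase genes.

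The sequences before the starts of Cebpa, Nr5a2 and Hnf4a are shown because Cebpa was the gene of the 8 that changed, and because Nr5a2 and Hnf4a each have 2 annotated starts and several probe sets that gave unlike readings. They come from RefSeq on GRCm38.p6 and cover the 250 bases before each start, 5′ to 3′ on the strand of the gene, and capitals mark motif matches. The Cebpa window lies at chr7:35119043-35119292 (+), the Nr5a2 windows at chr1:136960449-136960698 (−) and chr1:136953631-136953880 (−), and the Hnf4a windows at chr2:163506607-163506856 (+) and chr2:163546905-163547154 (+).
Cebpa: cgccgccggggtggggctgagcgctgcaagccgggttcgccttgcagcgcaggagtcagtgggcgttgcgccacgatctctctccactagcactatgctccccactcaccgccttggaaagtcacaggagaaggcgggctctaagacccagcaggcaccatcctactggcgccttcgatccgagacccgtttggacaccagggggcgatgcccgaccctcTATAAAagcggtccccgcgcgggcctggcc
Nr5a2, upstream start: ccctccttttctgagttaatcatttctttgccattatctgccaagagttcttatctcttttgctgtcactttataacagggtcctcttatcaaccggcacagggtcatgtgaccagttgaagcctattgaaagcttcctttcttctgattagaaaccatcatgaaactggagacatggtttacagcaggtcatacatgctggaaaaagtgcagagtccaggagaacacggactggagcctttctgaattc
Nr5a2, downstream start: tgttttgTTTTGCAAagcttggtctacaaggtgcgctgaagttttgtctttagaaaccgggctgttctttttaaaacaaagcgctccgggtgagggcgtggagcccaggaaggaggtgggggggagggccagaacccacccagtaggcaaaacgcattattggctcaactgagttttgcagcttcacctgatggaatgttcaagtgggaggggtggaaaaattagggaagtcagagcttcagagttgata
Hnf4a, upstream start: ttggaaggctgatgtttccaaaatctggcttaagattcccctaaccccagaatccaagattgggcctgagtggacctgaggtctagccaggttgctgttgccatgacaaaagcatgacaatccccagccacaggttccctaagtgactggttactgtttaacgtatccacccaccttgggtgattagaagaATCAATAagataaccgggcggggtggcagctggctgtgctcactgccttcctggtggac
Hnf4a, downstream start: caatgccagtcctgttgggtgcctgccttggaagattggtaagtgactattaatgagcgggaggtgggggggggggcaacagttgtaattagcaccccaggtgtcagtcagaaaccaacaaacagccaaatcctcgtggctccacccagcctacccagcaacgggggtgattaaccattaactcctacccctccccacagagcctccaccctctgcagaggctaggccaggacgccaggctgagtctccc

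The 6 motifs searched in the windows of all 8 genes were CAAAGTCCA for HNF4, TTNNGCAA for C/EBP, TGTTTAC for FOXA, ATCAATA for ONECUT and CAAGGTCA for NR5A on both strands, and TATAAA for the TATA box on the strand of the gene. Of the 12 windows, 6 held a match to at least 1 motif, and the share of all windows with such a match was not counted. The Cebpa window held TATAAA at position −30 from the start, the window of the downstream Nr5a2 start the C/EBP motif at −243, and the window of the upstream Hnf4a start the ONECUT motif at −59. Foxa1 held the FOXA motif at −141, Foxa2 the ONECUT motif at −214 before its most upstream start, and Foxa3 TATAAA at −36, while the windows of Cebpb and Onecut1 held none. Over all 32851 such windows of the table, 9.56% held the C/EBP motif, 3.17% the FOXA motif, 1.86% the ONECUT motif, 1.33% the NR5A motif, 0.384% the HNF4 motif and 7.59% TATAAA. A match is a description of the letters and not a measured site.

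The deposited values are normalized intensities, called signals here, on a linear scale. The methods name dChip and the sample records MAS5, and the sources used here do not say which made the table. A value of 16 was added before the log2, and log2 fold changes are on that scale. Genes are called where limma's p, adjusted by Benjamini-Hochberg over all genes tested (or over all probe sets, for single probe sets), was under 0.05, and the array medians lay between 153 and 166. RNA integrity was low on an array of each βgal group. For the β-actin control, the 3′ signal over the 5′ signal was 3.64 in post-βgal replicate 1 and 7.0 in pre-βgal replicate 1, against 1.27 to 1.62 on the other 6 arrays. Whether arrays before and after resection hold RNA of the same mice is not stated. The labels call the 2 arrays of a group replicates, which are separate pools, and with 2 per group their number limits the precision of every value.

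Cebpa was lower after resection under both transgenes, and it was the gene of the 8 that passed the test in a comparison. Its probe set 1418982_at had signals of 1795 and 1636 in post-A20, 5543 and 3235 in pre-A20, 1234 and 1168 in post-βgal and 2258 and 2974 in pre-βgal. All 4 arrays after resection lay below all 4 before it, and the pre-A20 arrays differed from each other by more than the arrays of any other group. Averaged over both transgenes, the log2 fold change of after against before resection was −1.20 (standard error 0.19, 95% interval −1.63 to −0.76, limma adjusted p = 0.0145). Within each transgene the difference did not pass the test, at −1.30 in A20 livers (standard error 0.27, adjusted p = 0.071) and −1.10 in βgal livers (standard error 0.27, adjusted p = 0.0777). The difference in A20 livers passed in the fits without pre-βgal replicate 1 (adjusted p = 0.0407) or 2 (0.0413), where the fold change was the same and the estimate of the spread was not. The difference between these responses was −0.20 (95% interval −1.07 to 0.67, adjusted p = 0.827). The call of the average was lost without post-A20 replicate 1 (adjusted p = 0.0549) or 2 (0.0819) and without post-βgal replicate 1 (0.0522) or 2 (0.0624), with log2 fold changes from −1.39 to −1.01 over the fits without 1 array each. Without the βgal arrays of low RNA integrity it was −1.32 (adjusted p = 0.0218).

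The A20 arrays of Cebpa also lay above the βgal arrays at each time, without overlap. The log2 fold change of A20 against βgal was 0.71 before resection (95% interval 0.09 to 1.32, limma adjusted p = 0.183) and 0.51 after it (95% interval −0.11 to 1.12, adjusted p = 0.327). The value before resection lay between 0.318 without pre-A20 replicate 1 and 1.092 without pre-A20 replicate 2. The average of both times was 0.61 (standard error 0.19, adjusted p = 0.0979), short of the threshold. It passed without pre-βgal replicate 2 (0.705, adjusted p = 0.0486), a fit that leaves the low-integrity array as the single pre-βgal one, and was 0.53 without both low-integrity arrays (adjusted p = 0.243).

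**Figure D1:**
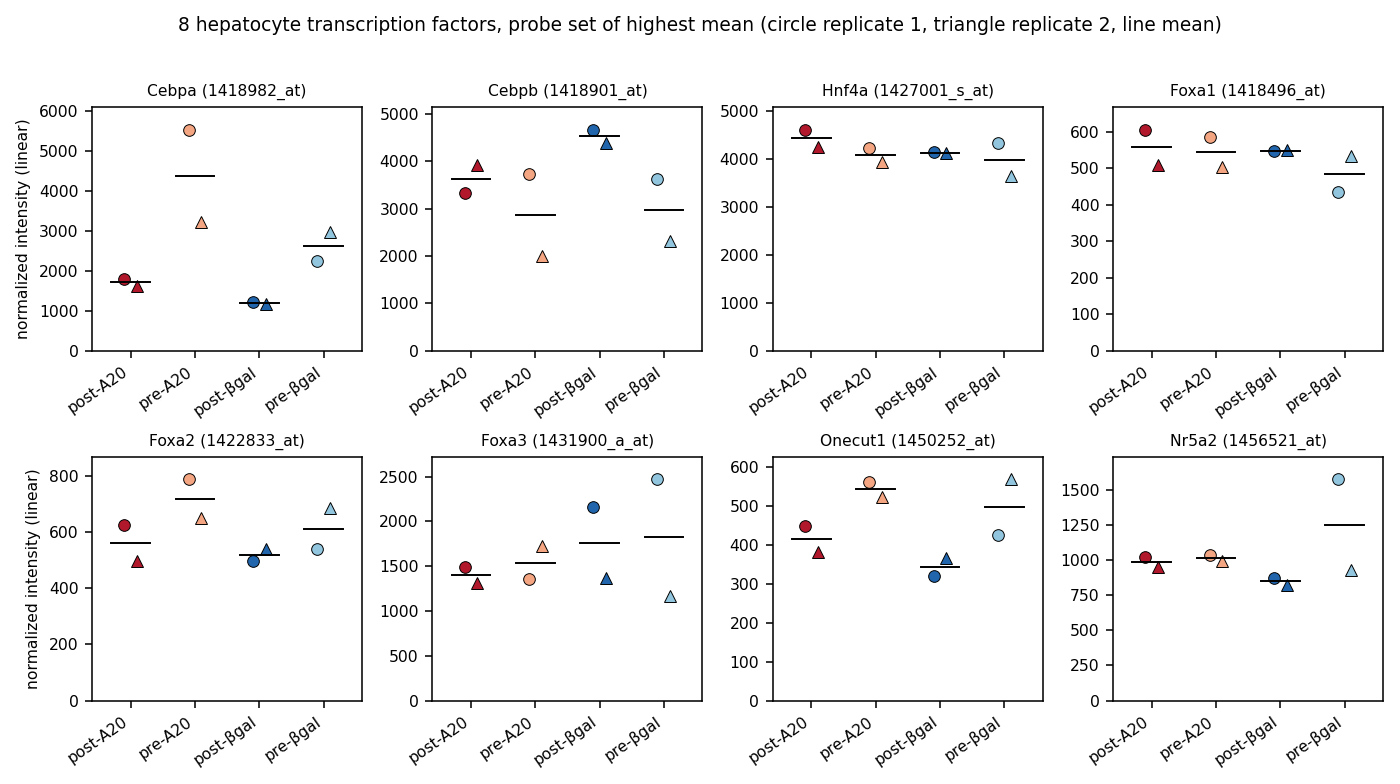
Normalized intensity on a linear axis (vertical) of the 8 genes on each array, by group (horizontal), with a circle for replicate 1, a triangle for replicate 2 and a line for the group mean. The Cebpa arrays after resection sit between 1168 and 1795 and those before it between 2258 and 5543, and Foxa3 and Nr5a2 are highest in pre-βgal replicate 1.

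Cebpb had higher means after resection, the opposite of Cebpa, and neither of its probe sets passed the test. The signals of 1418901_at were 3330.5 and 3918 in post-A20, 3738 and 2011 in pre-A20, 4669 and 4377 in post-βgal and 3623 and 2310 in pre-βgal. The post-βgal arrays lay above all others, and the post-A20 and pre-A20 arrays overlapped. The average log2 fold change with resection was 0.52 (95% interval −0.0015 to 1.04, limma adjusted p = 0.241), and that of A20 against βgal −0.20 (95% interval −0.72 to 0.32). The other probe set, 1427844_a_at, gave 0.53 (95% interval −0.14 to 1.19) and −0.19 (95% interval −0.86 to 0.47). Its arrays in pre-A20 were far apart, at 1921 and 739, against 1148 and 1696 in post-A20, 1827 and 2131 in post-βgal and 1045 and 1169 in pre-βgal.

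Hnf4a was level over the groups on its brightest probe set, 1427001_s_at. The signals were 4614 and 4255 in post-A20, 4223 and 3936 in pre-A20, 4153 and 4118 in post-βgal and 4341 and 3636 in pre-βgal. The average log2 fold change was 0.07 for A20 against βgal (95% interval −0.18 to 0.32, limma adjusted p = 0.718) and 0.09 with resection (95% interval −0.16 to 0.34, adjusted p = 0.689), so that changes of a size like that of Cebpa lie outside both intervals.

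Of the other probe sets of Hnf4a, 1421983_s_at and 1450447_at were much lower on the βgal arrays of low RNA integrity. The probe set 1421983_s_at had 2025 and 2501 in post-A20, 2743 and 1919 in pre-A20, 903 and 2191 in post-βgal and 397 and 2387 in pre-βgal, where the low value of each βgal group is replicate 1. On 1450447_at replicate 1 of post-βgal had 255 and that of pre-βgal 267, against 497 to 846 on the other 6 arrays. The fitted A20 averages of 0.94 for 1421983_s_at and 0.64 for 1450447_at have 95% intervals of −0.29 to 2.18 and −0.28 to 1.55. Without both low-integrity arrays the A20 average of 1421983_s_at was −0.01 (adjusted p over all probe sets = 0.985). The fourth, 1427000_at, was lowest in pre-βgal replicate 1 at 1013 and lay between 1236 and 2065 elsewhere, with 0.06 for A20 and 0.34 for resection (95% interval −0.19 to 0.86).

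The FOXA genes had 1 probe set each, and none passed the test in any of the 7 comparisons. Foxa1 had 605 and 508 in post-A20, 584 and 502 in pre-A20, 548 and 548 in post-βgal and 434 and 534 in pre-βgal, and its average differences of 0.09 for A20 and 0.11 for resection had 95% intervals of −0.19 to 0.37 and −0.17 to 0.39. Foxa2 had 624 and 495 in post-A20, 787 and 648 in pre-A20, 496 and 538 in post-βgal and 538 and 683 in pre-βgal. In A20 livers its arrays after resection lay below those before it, while in βgal livers the higher array after resection and the lower one before it were level, and the average log2 fold change was −0.29 (95% interval −0.61 to 0.03, limma adjusted p = 0.278). Foxa3 had 1493 and 1314 in post-A20, 1355 and 1721 in pre-A20, 2162 and 1367 in post-βgal and 2471 and 1171 in pre-βgal. Its highest values were thus on both low-integrity arrays, and the A20 average of −0.22 (95% interval −0.82 to 0.37) became 0.21 without them (adjusted p over all probe sets = 0.522). With the RNA integrity ratio as a covariate, the A20 average was 0.06 for Hnf4a 1421983_s_at, 0.05 for Hnf4a 1450447_at and 0.17 for Foxa3, and none of the 3 passed.

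Onecut1 gave unlike readings on its 2 probe sets. On 1450252_at, which stands for the gene, the signals were 447 and 382 in post-A20, 561 and 523 in pre-A20, 320 and 365 in post-βgal and 424 and 568 in pre-βgal. The arrays after resection lay below those before it within each transgene, and the average log2 fold change of −0.44 (standard error 0.13, 95% interval −0.73 to −0.15) did not pass over all genes (limma adjusted p = 0.101). It passed without pre-βgal replicate 1 (−0.54, adjusted p = 0.0354). The A20 average was 0.20 (95% interval −0.09 to 0.49).

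On 1421447_at Onecut1 stood out in pre-A20. The signals were 201 and 153 in post-A20, 342 and 341 in pre-A20, 212 and 219 in post-βgal and 164 and 185 in pre-βgal. Both pre-A20 arrays lay above the other 6, the post-A20 arrays below the pre-A20 arrays, and the post-βgal arrays above the pre-βgal arrays. The probe set was higher in pre-A20 than in pre-βgal by 0.91 (standard error 0.14, limma adjusted p over all probe sets = 0.0309) and lower in post-A20 than in pre-A20, at −0.90 (standard error 0.14, adjusted p = 0.0439), while post-βgal against pre-βgal was 0.28 (95% interval −0.04 to 0.60). The difference between the responses, −1.18 (95% interval −1.63 to −0.73), did not pass over all probe sets (adjusted p = 0.217). The call before resection held only in the fit without pre-βgal replicate 2 of the 8 fits without 1 array (adjusted p from 0.0214 to 0.244), which leaves the low-integrity array as the single pre-βgal one, and it was lost without both low-integrity arrays (0.83, adjusted p = 0.0929). That of post-A20 against pre-A20 held only without pre-βgal replicate 1 or 2 (0.0279 to 0.264).

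Nr5a2 also differed between its probe sets. On 1456521_at, which stands for the gene, the signals were 1020.4 and 949 in post-A20, 1036 and 997 in pre-A20, 872 and 825 in post-βgal and 1575 and 929 in pre-βgal. The low-integrity array of pre-βgal lay far above the others, and both post-βgal arrays lay below all others. Neither the A20 average of −0.02 (95% interval −0.41 to 0.38) nor the resection average of −0.27 (95% interval −0.67 to 0.12) passed the test. The comparison of post-βgal with pre-βgal passed in the fit without pre-βgal replicate 2, which leaves the low-integrity array as the only pre-βgal one, and was −0.17 without both low-integrity arrays (adjusted p = 0.74).

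On 1449706_s_at, Nr5a2 was higher with A20. The signals were 649 and 770 in post-A20, 1323 and 1273 in pre-A20, 416 and 354 in post-βgal and 380 and 409 in pre-βgal. All 4 A20 arrays lay above all 4 βgal arrays, and pre-A20 above post-A20. The log2 fold change of A20 against βgal was 1.68 before resection (standard error 0.16, limma adjusted p over all probe sets = 0.0163), 0.85 after it (standard error 0.16, adjusted p = 0.0815) and 1.27 on average (standard error 0.11, 95% interval 1.00 to 1.53, adjusted p = 0.0075). The average passed in all 8 fits without 1 array (adjusted p from 0.00375 to 0.0495) and without both low-integrity arrays (1.30, adjusted p = 0.0175). The call before resection was lost without pre-A20 replicate 2 (adjusted p = 0.108), and the difference after it passed without pre-βgal replicate 1 (0.0477) or 2 (0.0482). The difference between the responses to resection, −0.83 (95% interval −1.35 to −0.30), did not pass (adjusted p = 0.23). In the maker's naming the ending _s_at marks probes shared by several transcripts, which may come from different genes. Which transcripts each Nr5a2 probe set reads, and whether 1449706_s_at also reads another gene, was not analysed here. The same limit holds for Hnf4a 1427001_s_at and 1421983_s_at.

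The remaining probe sets of Nr5a2 did not pass in any comparison. The signals of 1420410_at were 540 and 587 in post-A20, 513 and 552 in pre-A20, 259 and 518 in post-βgal and 368 and 556 in pre-βgal, with the low values again on the low-integrity arrays, and its A20 average was 0.41 (95% interval −0.10 to 0.92). The dim 1449707_at lay between 48.3 and 78.7 on the 8 arrays.

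**Figure D2:**
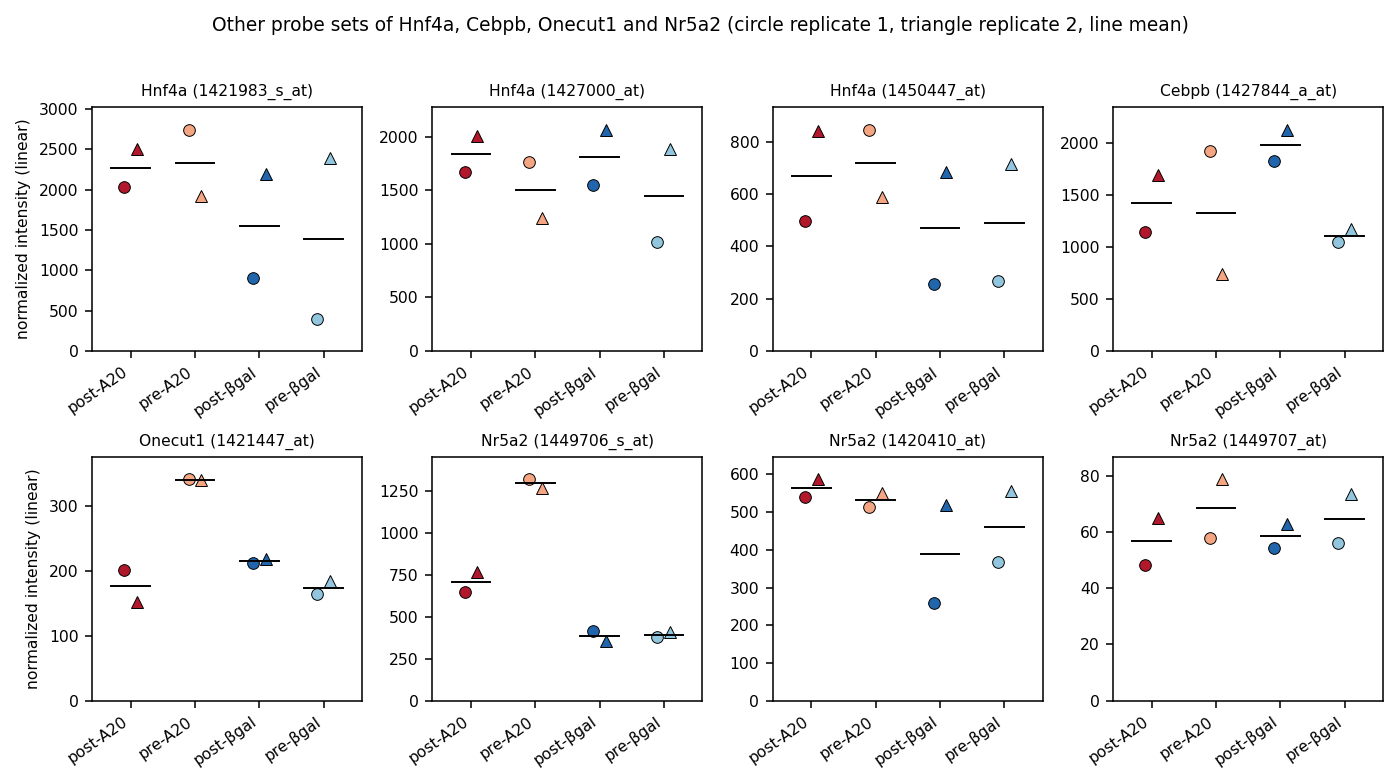
Normalized intensity on a linear axis (vertical) of the other probe sets of Hnf4a, Cebpb, Onecut1 and Nr5a2 on each array, by group (horizontal), with a circle for replicate 1, a triangle for replicate 2 and a line for the group mean. Nr5a2 1449706_s_at lies between 649 and 1323 on the A20 arrays and between 354 and 416 on the βgal arrays, and Hnf4a 1421983_s_at and 1450447_at are lowest in replicate 1 of both βgal groups.

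Over the 8 genes, limma called 1 in the resection average, Cebpa, where 4.76% of all genes were called, and 0 in each of the other comparisons. The share called among all genes was 5.39% for the A20 average, 1.01% for post-A20 against pre-A20, 2.25% for post-βgal against pre-βgal, 2.5% for pre-A20 against pre-βgal, 0.332% for post-A20 against post-βgal and 0% for the difference between the responses. At an unadjusted p under 0.05 there were 2 of the 8 in the resection average (20.9% of all genes) and in post-βgal against pre-βgal (22.2%), 1 in the A20 average (26.2%), in post-A20 against pre-A20 (15.4%) and in pre-A20 against pre-βgal (21.8%), and 0 in post-A20 against post-βgal (19.6%) and in the difference between the responses (15.7%, or 2788 genes). Counts of 0 to 2 among 8 genes do not set these factors apart from the rest. Their median log2 fold change was 0.08 for the A20 average, beside −0.001 for all genes, and −0.17 for the resection average, beside −0.01.

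Over the 16 probe sets, 2 were called for pre-A20 against pre-βgal (Nr5a2 1449706_s_at and Onecut1 1421447_at, both higher), where 1.83% of all probe sets were called. A single one was called in each of 3 other comparisons, Onecut1 1421447_at for post-A20 against pre-A20 (0.546% of all), Nr5a2 1449706_s_at for the A20 average (4.07%) and Cebpa for the resection average (3.11%). There were 0 for post-βgal against pre-βgal (1.11%), post-A20 against post-βgal (0.283%) and the difference between the responses (0.00234%), where 2, 1 and 2 had an unadjusted p under 0.05, as did 20.5%, 18.4% and 15.6% of all probe sets.

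**Figure D3:**
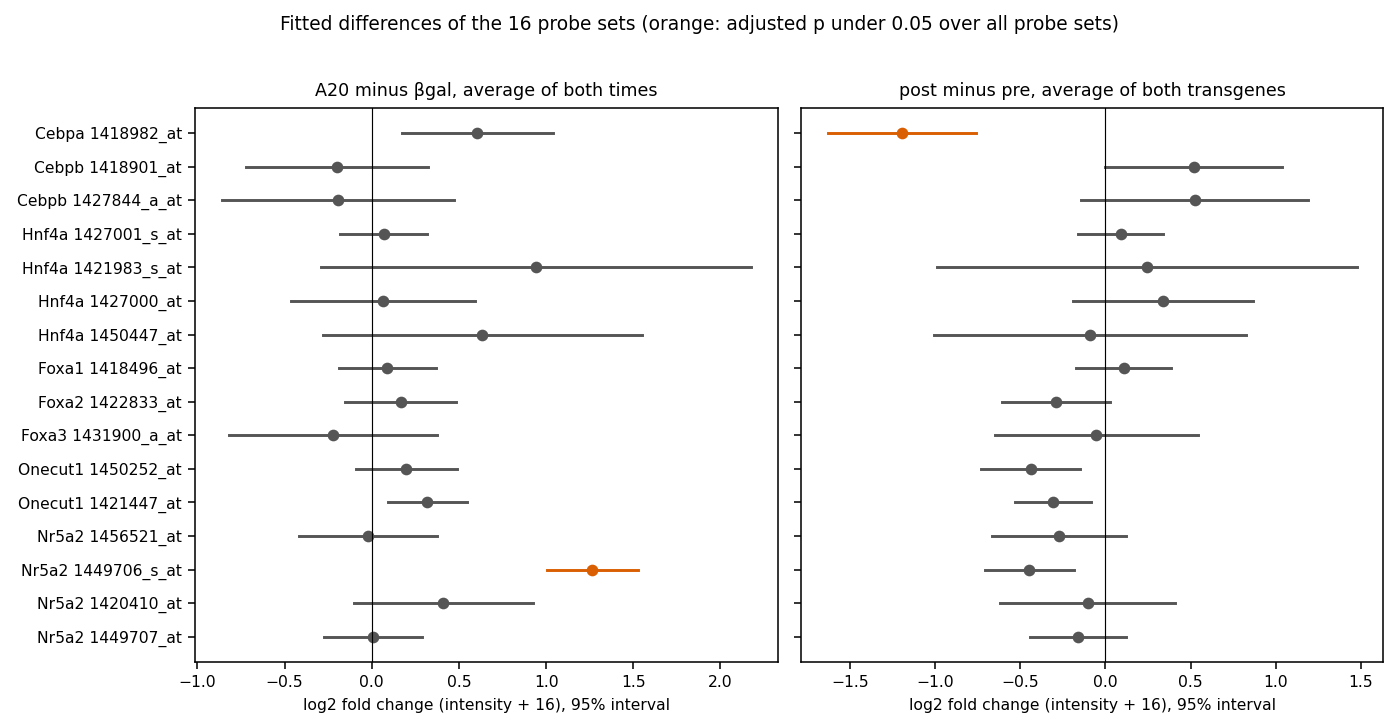
Fitted log2 fold changes (horizontal, log2 of intensity + 16) with 95% intervals of the 16 probe sets (vertical), for A20 against βgal averaged over both times (left) and after against before resection averaged over both transgenes (right), in orange where limma's adjusted p over all probe sets was under 0.05. Nr5a2 1449706_s_at at 1.27 and Cebpa at −1.20 are the orange points.

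Each gene was also set beside the genes whose log2 signals followed it most closely over the 8 arrays, by Pearson's r. For Cebpa these were Foxo3, a forkhead factor (0.983), Acy3, an aminoacylase (0.983), and Zfp385b (0.980). For Onecut1 they were Nova2 (0.985), Gsta3, a glutathione transferase (0.977), and Gjd4 (0.971), and for Nr5a2 Prrc2b (0.983), Glb1 (0.980) and Wdtc1 (0.976). Foxa2 went with Atf6, a factor of the unfolded protein response (0.969), 9330175E14Rik (0.967) and Npvf (0.955), and Cebpb with Dst (0.956), Smap2 (0.952) and Gadd45g (0.943). For Foxa3 they were Map1lc3a (0.989), Gfus (0.984) and Zbtb17 (0.983), for Hnf4a Bex4 (0.951), Pof1b (0.921) and Atxn7l2 (0.918), and for Foxa1 Psmf1 (0.937), Cars (0.920) and Ano8 (0.911). The 8 arrays share 4 groups and the low-integrity pair, and with 17790 genes to choose from, high values of r arise easily.

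Among other transcription factors of the liver, 4 of 28 tested passed as higher and 0 as lower in the A20 average, and 1 as higher and 1 as lower in the resection average. Of all genes, 2.08% passed as higher and 3.31% as lower in the A20 average, and 2.83% as higher and 1.93% as lower in the resection average, and the counts of every list here stand beside these shares. Dbp had 222 and 452 in post-A20, 2788 and 2056 in pre-A20, 415 and 212 in post-βgal and 113 and 80.9 in pre-βgal, with an A20 average of 2.26 (limma adjusted p = 0.0171). The pre-A20 arrays of Dbp lay far above all others, and the post-A20 and post-βgal arrays overlapped. Tef and Hlf, which with Dbp form the PAR family of leucine zipper factors, were higher by 0.75 (adjusted p = 0.0209) and 0.84 (adjusted p = 0.0271). Klf15, a factor of amino acid and glucose metabolism, was higher with A20 by 0.99 (adjusted p = 0.0216) and lower after resection, at −0.77 (adjusted p = 0.0364). Cebpd, the acute phase member of the C/EBP family, had 587 and 783 in post-A20, 394 and 336 in pre-A20, 1324 and 1371 in post-βgal and 844 and 413 in pre-βgal, and rose with resection by 1.02 (adjusted p = 0.0436).

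Of 22 partners and regulators of the factors, 0 passed in the A20 average and 2 in the resection average, both higher. Ppargc1a, the coactivator of HNF4A in gluconeogenesis, had 164 and 244 in post-A20, 106 and 85.1 in pre-A20, 189 and 155 in post-βgal and 75.0 and 103 in pre-βgal, and rose by 0.91 (limma adjusted p = 0.0158). Id1, an inhibitor of basic helix-loop-helix factors, rose by 0.69 (adjusted p = 0.019). Nr0b2 (SHP), which represses NR5A2 and HNF4A, had 988 and 924 in post-A20, 887 and 1685 in pre-A20, 362 and 456 in post-βgal and 2150 and 1120 in pre-βgal, a resection average of −1.12 that did not pass (adjusted p = 0.0558).

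Textbook target genes of the factors were read next, 57 genes in 5 lists, of which 16 stand in more than 1 list. Like the lists above, they were chosen with earlier results of these data known. Their counts beside the shares of all genes are thus descriptions and not tests of the lists. For NR5A2, 4 of 16 targets passed as higher and 0 as lower in the A20 average, and 0 as higher and 5 as lower in the resection average, with list medians of 0.40 and −0.39. Of the 4, Akr1d1, the reductase of bile acid synthesis, had 1975 and 1883 in post-A20, 1920 and 2453 in pre-A20, 657 and 645 in post-βgal and 2201 and 1841 in pre-βgal. The post-βgal arrays alone were low, and limma gave 0.83 for A20 (adjusted p = 0.0209) and −0.89 for resection (adjusted p = 0.0119). Abcb11, the bile salt export pump, was also lowest in post-βgal, with 2407 and 2551 in post-A20, 2802 and 2425 in pre-A20, 809 and 846 in post-βgal and 4012 and 3290 in pre-βgal, and it had 0.54 for A20 (adjusted p = 0.0455) and −1.09 for resection (adjusted p = 0.00454). Unlike Akr1d1, both its pre-A20 arrays lay below both pre-βgal arrays, so the A20 average joins −0.48 before resection (adjusted p = 0.166) and 1.56 after it (adjusted p = 0.0185). Cyp7a1, the rate-limiting enzyme of bile acid synthesis, had 469 and 474 in post-A20, 1356 and 1737 in pre-A20, 229 and 293 in post-βgal and 608 and 1150 in pre-βgal, and fell by 1.65 on the log2 scale with resection (adjusted p = 0.00719). Its A20 average of 0.84 did not pass (adjusted p = 0.0582).

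For HNF4A, 3 of 21 targets passed as higher and 0 as lower in the A20 average, and 3 as higher and 5 as lower in the resection average, with medians of 0.35 and −0.17. Apob, the structural protein of very low density lipoprotein, had 6260 and 6348 in post-A20, 3631 and 1846 in pre-A20, 2094 and 2053 in post-βgal and 1047 and 1308 in pre-βgal, and was higher with A20 by 1.37 (limma adjusted p = 0.0202) and with resection by 1.05 (adjusted p = 0.033). Slc10a1, the bile acid uptake carrier, was higher with A20 by 1.19 (adjusted p = 0.0251), as was Abcg5, a sterol exporter, by 0.72 (adjusted p = 0.0301). Both stand in the NR5A2 list too and are among its targets called higher. With resection Apoa4 rose by 2.30 (adjusted p = 0.0013), while Abcg8, the partner of Abcg5, fell by 0.94 on the log2 scale (adjusted p = 0.0143).

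For the C/EBP factors, 2 of 22 targets passed as higher and 4 as lower in the A20 average, and 9 as higher and 2 as lower in the resection average, with medians of −0.03 and 0.29. Lcn2, an iron-withholding protein, rose with resection by 3.79 (limma adjusted p = 0.000668), Saa2, a serum amyloid A protein, by 3.91 (adjusted p = 0.00103) and Orm2, an acute phase glycoprotein, by 2.79 (adjusted p = 0.00177). Saa3 had 3268 and 2902 in post-A20, 365 and 477 in pre-A20, 5554 and 9086 in post-βgal and 7330 and 3534 in pre-βgal, and was lower with A20, at −2.38 (adjusted p = 0.0142). Adh1, an alcohol dehydrogenase, had 11950 and 11540 in post-A20, 12310 and 12060 in pre-A20, 5516 and 5757 in post-βgal and 12040 and 11350 in pre-βgal, which gave 0.56 for A20 (adjusted p = 0.018) and −0.55 for resection (adjusted p = 0.0115).

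For ONECUT1, 0 of 9 targets passed in the A20 average, though all 9 had positive values (median 0.44), and 0 passed as higher and 3 as lower in the resection average (median −0.29). These were Cyp7a1, Cyp8b1, the enzyme of cholic acid synthesis (−0.93, limma adjusted p = 0.0363), and G6pc, the last enzyme of glucose release (−0.78, adjusted p = 0.0218). For FOXA, 1 of 15 targets passed as higher in the A20 average, Apob, and 2 as higher in the resection average, Apob and Igfbp1, an insulin-like growth factor binding protein (2.08, adjusted p = 0.0495), with 0 lower in either and medians of 0.11 and 0.12. A single gene of 15 is near the share of all genes and is no result about the list. The medians over all genes were −0.001 for A20 and −0.01 for resection.

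**Figure D4:**
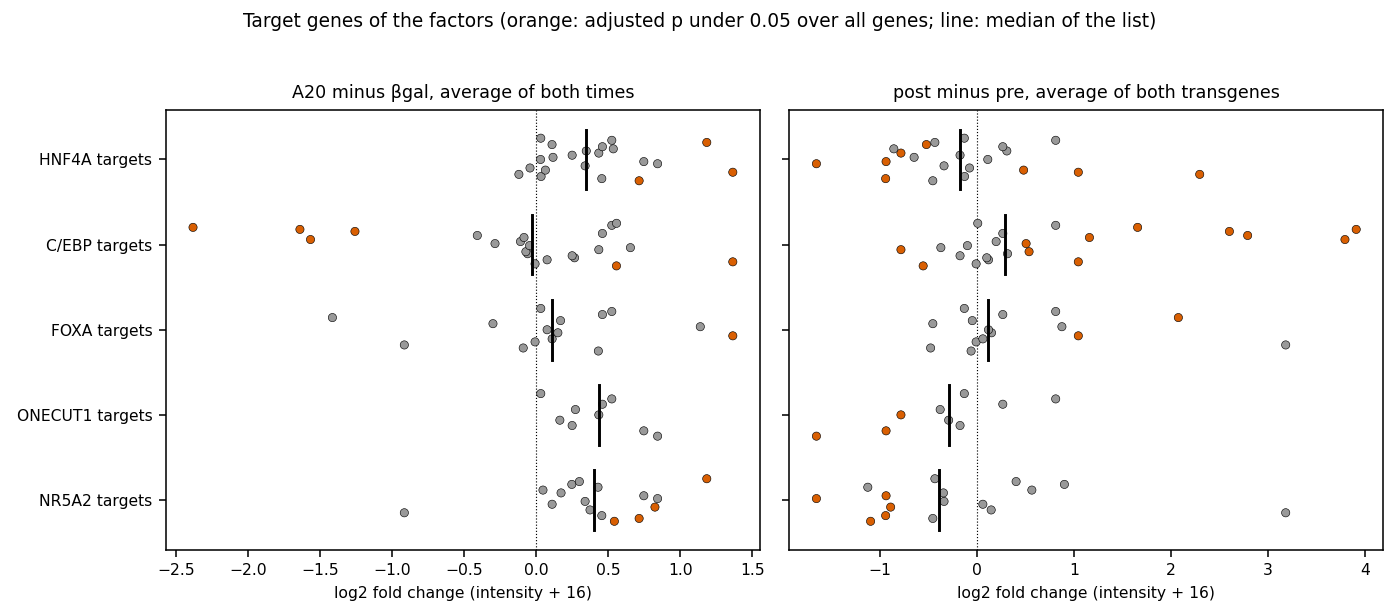
Log2 fold changes (horizontal, log2 of intensity + 16) of the target genes in the 5 lists (vertical), each point 1 gene and each line the median of the list, for A20 against βgal averaged over both times (left) and after against before resection averaged over both transgenes (right), in orange where limma's adjusted p over all genes was under 0.05. The medians of the NR5A2 list are 0.40 and −0.39 and those of the C/EBP list −0.03 and 0.29.

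The counts of targets called depended on the arrays, while most of the medians kept their sign. In the fits without 1 array, each of which leaves a single array in a group, the number of all genes called moved as well. The NR5A2 and HNF4A targets called higher with A20 were fewer than in the main fit when an array of post-A20, post-βgal or pre-A20 was left out. Fewer of all genes were called in those fits too, so these counts are no separate result about the lists. Over these 8 fits the median of the NR5A2 list lay between 0.34 and 0.51 for A20 and between −0.45 and −0.31 for resection, and that of the HNF4A list between 0.27 and 0.42 and between −0.22 and −0.14. Without both low-integrity arrays the NR5A2 medians were 0.50 for A20 and −0.46 for resection, and the HNF4A medians 0.28 and −0.25. The C/EBP targets that rose with resection were fewer in the fits that called fewer of all genes than the main fit. Their list median lay between 0.235 and 0.352 over the 8 fits without 1 array. With the RNA integrity covariate 8 NR5A2 and 6 HNF4A targets were called higher with A20, and 9 and 9 lower with resection. That fit called 1280 of all genes for A20, against 959 in the main fit, and 2257 for resection, against 846.

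Markers of the cell types in the liver moved with the groups in part. The summed signal of 13 hepatocyte markers (of 16, the others not tested) was 142100 to 151600 in post-A20, 136500 to 144400 in pre-A20, 130800 to 135500 in post-βgal and 126900 to 130100 in pre-βgal, and Alb lay between 18090 and 19360 on all 8 arrays. Whether signals as bright as that of Alb can still show a change was not tested. Of the 13 hepatocyte markers 2 passed as higher and 0 as lower with A20, and 2 and 0 with resection. The 11 besides Fgb and Tat summed to 121300 to 126500 in post-A20 and 120300 to 125800 in pre-A20. In post-βgal these 11 summed to 105400 to 111200, below the 113500 to 114600 of pre-βgal. The sum of 9 neutrophil markers was 2900 to 3173 in post-A20, 2403 to 2500 in pre-A20, 5407 to 6244 in post-βgal and 3819 to 4449 in pre-βgal, with 3 of 9 lower with A20 and a list median of −0.04. S100a8 and S100a9 made most of this difference, with a joint signal of 569 to 815 in post-A20, 265 to 312 in pre-A20, 3352 to 3995 in post-βgal and 1253 to 2071 in pre-βgal, while the other 7 summed to between 2055 and 2566 on the 8 arrays. The sum of 11 Kupffer cell and macrophage markers was 8619 to 9639 in post-A20, 6214 to 6232 in pre-A20, 7836 to 10090 in post-βgal and 10400 to 10980 in pre-βgal. The sum of 7 cholangiocyte markers was 1688 to 1814 in post-A20, 1588 to 1766 in pre-A20, 1419 to 1665 in post-βgal and 1621 to 1969 in pre-βgal. The sum of 10 stellate cell markers was 6340 to 8012 in post-A20, 7669 to 7965 in pre-A20, 5815 to 5933 in post-βgal and 5835 to 6095 in pre-βgal, higher on all 4 A20 arrays as was Nr5a2 1449706_s_at, with 0 of 10 called for A20 (median 0.28). The 8 besides Dcn and Col3a1 summed to 3059 to 3806 in post-A20 and 3840 to 4257 in pre-A20. They summed to 2904 to 3263 in post-βgal and 3002 to 3717 in pre-βgal, and the post-A20 range overlapped both. The sum of 9 sinusoidal endothelial markers was 3806 to 4113 in post-A20 and 5062 to 5064 in pre-A20. It was 3893 to 4280 in post-βgal and 4407 to 4440 in pre-βgal, so highest in pre-A20, as was Onecut1 1421447_at. Of these 9, 0 were called for pre-A20 against pre-βgal, 4 had values above 0, and the list median was −0.015. Lyve1 was lowest in pre-A20, at 128.5 and 125.3. The 7 besides Clec4g and Lyve1 summed to 3205 to 3670 in pre-A20 and 3120 to 3162 in pre-βgal. The sum of 8 pancreatic acinar markers was 1894 to 2043 in post-A20, 3047 to 3387 in pre-A20, 1967 to 2155 in post-βgal and 3067 to 3075 in pre-βgal, lower after resection as was Cebpa. Of these 8, Cela1 passed as lower with resection (−1.28, adjusted p = 0.00454), and the 6 besides Cela1 and Cel summed to between 1083 and 1217 on the 8 arrays. The sum of 8 T and NK cell markers was 2663 to 2878 in post-A20, 2255 to 2302 in pre-A20, 2335 to 2578 in post-βgal and 2463 to 2767 in pre-βgal. The part of the cell composition in the Cebpa, Nr5a2 and Onecut1 values was not tested.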

How the data were processed

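Liver RNA was measured on 8 Affymetrix arrays in 4 groups of 2, taken from the labels. The authors deposited 1 table of normalized intensities, on a linear scale, that came from dChip (invariant set normalization, perfect-match probes) by the methods or MAS5 by the sample records, and it was used without further scaling. Symbols came from the annotation of the array, with 1 symbol for 34945 probe sets, several for 932 and none for 9160, and 64 control probe sets were left out. After adding 16 and taking the log2, the 42703 probe sets whose mean reached 40 in some group were used, and each of 17790 genes was read through its probe set of highest mean.

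The model was fitted with limma 3.58.1 (R 4.3.3), with 1 mean per group, variances moderated with a trend over all probe sets kept (4 residual and 3.73 prior degrees of freedom) and 2-sided p adjusted by Benjamini-Hochberg over all genes, or all probe sets, of a comparison. Each array is a pool, and p measures the spread between pools only. The 8 genes and the lists were chosen with earlier results of these data known. Named besides the 8 genes are, per list of targets, partners, factors or markers, up to 3 with the smallest p in each average and, per gene, the 3 genes of highest r. Hlf (in the A20 average) and Alb were named with their values known. As alternatives served quantile normalization, median centring, other filters (none, a mean of 100), offsets of 1 and 32, no variance trend, the probe set by the study's score, the 90% interval rule at a fold of 1.5, replicate blocks, fits of the 4 arrays compared, leaving out arrays, an RNA integrity covariate and, added after the data were seen, variances moderated over the genes alone and the counts of targets and probe sets under each alternative. The model was tested on simulated data. Promoters came from RefSeq (GRCm38.p6). The transgenes, protein sequences and probe sequences were not analysed here.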

Additional observations from a re-analysis of the deposited data

Results flagged for a closer look

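Onecut1 on 1421447_at was singled out because its responses to resection ran in opposite directions, without overlap of the arrays, in the transgenes. All 16 probe sets of the 8 genes were searched for this pattern, and the share of all probe sets that show it was not counted. They were also searched for A20 differences of opposite direction before and after resection, which the same probe set showed. A called difference between the responses was searched for as well and was not found. With 2 arrays per group, such a separation is a description and not a test. The post-A20 arrays, at 201 and 153, lay below the pre-A20 arrays, at 342 and 341, and the post-βgal arrays, at 212 and 219, lay above the pre-βgal arrays, at 164 and 185. The difference between the responses was −1.18 on the log2 scale and did not pass limma's test over all probe sets (adjusted p = 0.217, 0.0543 with an RNA integrity covariate and 0.359 without both low-integrity arrays). The other probe set of Onecut1, 1450252_at, had 0.12 in the same comparison (95% interval −0.46 to 0.71).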

How the results depend on the processing

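Under quantile normalization, median centring, other filters, other offsets and no variance trend, Cebpa was the gene of the 8 called, in the resection average, and the counts of the other comparisons stayed at 0. For post-βgal against pre-βgal the count was 1 with the interval rule, 1 with a replicate block within transgene (Cebpa in both), 2 with the RNA integrity covariate (Cebpa and Onecut1) and 0 to 1 in the fits without 1 array (1, Nr5a2, without pre-βgal replicate 2). For post-A20 against pre-A20 it was 1 (Cebpa) with the interval rule, a replicate block within transgene, both low-integrity arrays left out, the RNA integrity covariate, variances over genes alone and only the 4 arrays compared, 1 with the probe set by the study's score (Onecut1) and 0 to 1 without 1 array (1, Cebpa, without either pre-βgal array). With the probe set by the study's score, which read Onecut1 and Nr5a2 through 1421447_at and 1449706_s_at, it was 2 for pre-A20 against pre-βgal (Onecut1 and Nr5a2), 1 for post-A20 against post-βgal and 1 for the A20 average (Nr5a2), and Onecut1 for post-βgal against pre-βgal turned from −0.50 to 0.283. For pre-A20 against pre-βgal this setting called 1130 of all genes, against 444 in the main fit. For the A20 average it called 2228, against 959, and for post-A20 against post-βgal 323, against 59. The RNA integrity covariate called 2362 genes for post-βgal against pre-βgal and 1052 for post-A20 against pre-A20, against 400 and 180. The fits without 1 array also moved the number of genes called. Counts of 0 to 2 among 8 genes do not set the factors apart here. The A20 average had 0 to 1 without 1 array (1, Cebpa, without pre-βgal replicate 2). In the resection average 2 were called, Cebpa and Onecut1, under the RNA integrity covariate and the replicate block within transgene, and 0 to 2 without 1 array, with 0 without each of the 4 arrays after resection and 2 without pre-βgal replicate 1. Deviations of arrays with the same number correlated at 0.62 between post-βgal and pre-βgal and at −0.02 between post-A20 and pre-A20. The replicate 1 arrays of both βgal groups were those of low RNA integrity, and the other pairs of groups gave −0.15 to 0.16. No source states that arrays of one number share mice, and the numbers were not taken as pairs. A replicate block shared by all groups left 1 member called in the resection average and 0 elsewhere, and the call of Onecut1 1421447_at for post-A20 against pre-A20 was lost with it (adjusted p = 0.0544). Within transgene the block called 1585 genes for post-βgal against pre-βgal and 686 for post-A20 against pre-A20, against 400 and 180, and Cebpa passed in both (adjusted p = 0.0226 and 0.0199). For the A20 average the block called 314 of all genes, against 959. It left 1 NR5A2 and 0 HNF4A targets higher with A20, against 4 and 3. Of the C/EBP targets it left 0 higher and 2 lower, against 2 and 4. The cause of these shifts was not tested.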
